A study of Homo sapiens with 24 samples.

Results

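The mitochondrially encoded genes are the 37 genes that the count files place on chromosome MT, out of 58735 genes in each file. They were chosen by that position alone, and comprise 13 protein-coding genes, 2 ribosomal RNA (rRNA) genes and 22 transfer RNA (tRNA) genes. Their coordinates in hg38, in which this chromosome has 16569 bases, all matched GENCODE release 44. RNA-seq counts were deposited for HCT116, an established human colorectal carcinoma line, in 8 groups of 3 libraries. All cells carried OsTIR1, the plant receptor that couples auxin to protein degradation, under a tetracycline-inducible promoter. The WT line had no further change. In UHRF1-AID cells an auxin-inducible degron with mClover was fused to the C-terminus of UHRF1, in DNMT1-AID cells a degron with mRuby2 to the N-terminus of DNMT1, and UHRF1-AID/DNMT1-AID cells (the compound line) carried both. UHRF1 and DNMT1 maintain the methylation of nuclear DNA. Day 0 cells were collected before auxin. Day 4 cells had 1 day of 2 µg/ml doxycycline with 20 µM auxinole, which blocks auxin perception, and then 4 days of doxycycline with 500 µM auxin. WT cells received the same agents, so day 4 against day 0 in a line combines protein loss, auxin, doxycycline and time. The study describes the libraries of a group as biological replicates, with clones of separate origin for the AID lines. The labels number the libraries but do not say which clone a number stands for, and p-values measure the spread between these libraries.

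The mitochondrial genome is a small circle present in many copies per cell. Both of its strands are transcribed into long RNAs that cover many genes, and these are cut at the tRNAs that lie between the other genes. Most of the mRNAs receive short poly(A) tails. The mRNAs encode core subunits of respiratory complexes I, III and IV and of the ATP synthase, while the rRNAs form the mitochondrial ribosome. All other proteins of the organelle, its RNA polymerase included, come from nuclear genes. Doxycycline belongs to a class of antibiotics that can act on mitochondrial ribosomes.

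The genes lie so close together that some of them overlap. The start of MT-ATP6 lies within MT-ATP8, and MT-ND4L ends within the start of MT-ND4. Both overlaps are shown on the + strand of hg38 because a read that falls in one lies in both genes, and the capitals mark the shared bases. The first spans MT:8507-8592 with 46 shared bases, and the second spans MT:10740-10786 with 7.
MT-ATP8/MT-ATP6 overlap: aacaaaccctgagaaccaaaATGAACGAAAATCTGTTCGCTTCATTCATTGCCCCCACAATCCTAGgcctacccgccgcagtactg
MT-ND4L/MT-ND4 overlap: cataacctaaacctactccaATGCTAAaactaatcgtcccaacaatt

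Of the 37 genes, 28 read from the heavy-strand transcript and 9, MT-ND6 and 8 tRNA genes, from the light-strand transcript. Counts of the tRNA genes MT-TN, MT-TC, MT-TY and MT-TP, all in the second set, entered several of the results below. MT-TC and MT-TN are shown on their own strand at MT:5657-5826, with the 31 bases between them in capitals, where the origin of light-strand replication lies. MT-TP is shown on its own strand at MT:15956-16043, with 20 bases of the control region before it in capitals.
MT-TC to MT-TN: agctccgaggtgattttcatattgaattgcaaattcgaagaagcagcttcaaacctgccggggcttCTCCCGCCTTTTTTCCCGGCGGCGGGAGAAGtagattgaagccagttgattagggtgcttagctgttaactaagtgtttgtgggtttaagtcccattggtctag
MT-TP: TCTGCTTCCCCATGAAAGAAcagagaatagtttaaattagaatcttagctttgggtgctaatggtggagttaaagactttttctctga

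Libraries held between 15824804 and 25073821 counts on genes. The headers of the count files name 2 alignment folders. Folder 1 holds the 12 libraries of day 0 and the 3 of UHRF1-AID at day 4, none with a count on the 92 ERCC spike-in sequences. Folder 2 holds the 9 libraries of WT, DNMT1-AID and compound cells at day 4, with ERCC counts between 0.891% and 1.65% of all counts. UHRF1-AID at day 4 against WT at day 4, and day 4 against day 0 in the other 3 lines, therefore run across folders, and the folder and the groups cannot be told apart there. Relative to the mean of all libraries, the relation of counts to gene length was below 0 in all 9 libraries of folder 2, with Spearman's rho from -0.214 to -0.0036, a value near 0 that belongs to WT day 4 replicate 3. In folder 1 counts fell with gene length in 4 libraries: WT day 0 replicate 3, DNMT1-AID day 0 replicates 1 and 2, and UHRF1-AID day 4 replicate 2. Over 12944 nuclear genes Spearman's rho of that relation was -0.192 in WT day 0 replicate 3, -0.212 and -0.162 in the DNMT1-AID libraries and -0.132 in the UHRF1-AID library. The epithelial markers EPCAM, CDH1, KRT8, KRT18, KRT19 and CDX2 had counts in every library. Among markers of other cell types, the medians of PTPRC, COL1A2 and ALB were 0, that of PECAM1 was 0.20 CPM and that of COL1A1 5.49 CPM. The tag acts on the protein. At day 0 UHRF1 transcripts were at 169 ± 22.6 CPM in UHRF1-AID and 148 ± 61.4 CPM in compound cells (SD, n = 3 each). DNMT1 transcripts were then at 44.5 ± 25.3 CPM in DNMT1-AID and 65.5 ± 21.8 CPM in compound cells (SD, n = 3 each). None of these differences from WT reached an adjusted p under 0.05 (smallest adjusted p = 0.174 by edgeR). UHRF1 and DNMT1 transcripts had lower means at day 4 in each line, also in WT, where UHRF1 went from 73.6 ± 20.7 to 25.6 ± 8.53 CPM (SD, n = 3) and DNMT1 from 142.6 ± 57.4 to 31.5 ± 12.7 CPM (SD, n = 3).

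The share of gene counts on mitochondrially encoded genes lay between 1.47% and 5.05%. At day 0 it was 1.89% ± 0.19 in WT, 1.98% ± 0.75 in DNMT1-AID, 2.49% ± 0.32 in UHRF1-AID and 2.47% ± 0.40 in compound cells (SD, n = 3 each). WT libraries stood at 1.89%, 2.08% and 1.69%, and UHRF1-AID libraries at 2.27%, 2.85% and 2.33%, all above WT. DNMT1-AID libraries stood at 1.62%, 1.47% and 2.84%. The first 2 of these are the libraries whose counts fell with gene length, and they were lower than every other day 0 library. Compound libraries stood at 2.49%, 2.85% and 2.06% and overlapped with WT.

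At day 4 the share was 2.59% ± 0.26 in UHRF1-AID, 3.09% ± 0.16 in WT, 4.16% ± 0.13 in DNMT1-AID and 4.83% ± 0.26 in compound cells (SD, n = 3 each). Within folder 2, WT libraries held 3.16%, 3.21% and 2.91%, DNMT1-AID libraries 4.29%, 4.15% and 4.03%, and compound libraries 4.55%, 5.05% and 4.89%. The 3 groups did not overlap, and the means of DNMT1-AID and compound cells were 1.34 and 1.56 times that of WT. Within folder 1, UHRF1-AID cells had a mean at day 4 that was 1.04 times that at day 0, with overlapping libraries. Across folders, folder 1 ranged from 1.47% to 2.85% with a median of 2.29%, and folder 2 from 2.91% to 5.05% with a median of 4.15%, without overlap. In WT cells alone, which lost neither protein, the day 4 share in folder 2 was 1.64 times the day 0 share in folder 1. In bulk RNA, more mitochondrial genomes per cell and more RNA per genome cannot be told apart. No test was made on the share, which is a sum over the members.

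**Figure D1:**
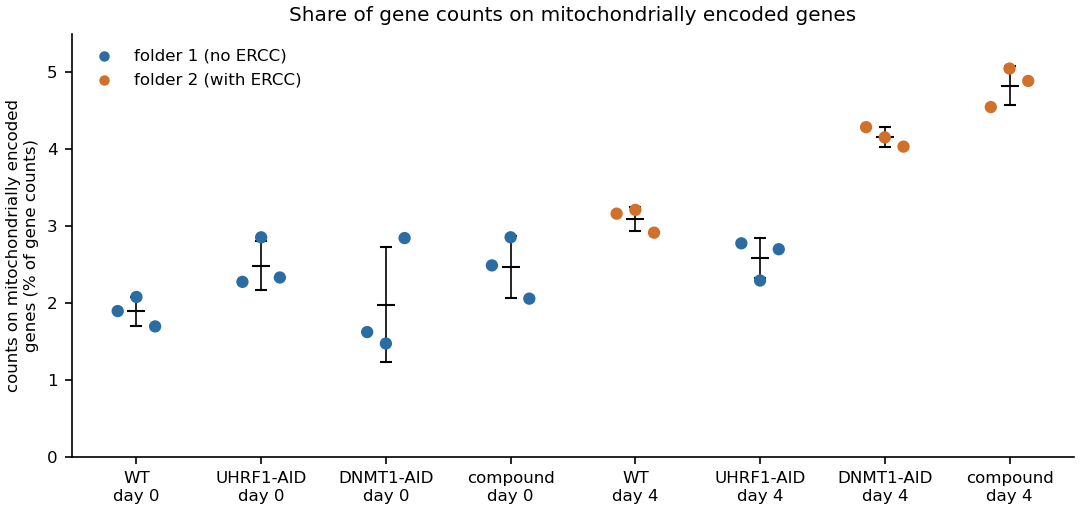
Share of gene counts on the 37 mitochondrially encoded genes (percent, linear axis from 0) in each of the 24 libraries, coloured by alignment folder, with the mean and SD of the 3 libraries of a group as bars. All 9 libraries of folder 2 lie at or above 2.91% and all 15 of folder 1 at or below 2.85%.

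The ERCC counts give another scale within folder 2. Counts on mitochondrially encoded genes per ERCC count were 2.80, 3.57 and 1.99 in the WT libraries, with a mean of 2.79 ± 0.79 (SD, n = 3). They lay between 2.98 and 3.04 in DNMT1-AID and between 2.71 and 3.29 in compound cells, within the range of the WT libraries. Counts on all genes per ERCC count were 89.4 ± 21.4 in WT, 72.2 ± 2.21 in DNMT1-AID and 63.8 ± 3.61 in compound cells (SD, n = 3 each). On this scale the mitochondrial counts of the 3 lines were close together and the counts of all genes were lowest in compound cells. The amount of ERCC RNA added and what it was added to are not given in the sources used here.

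**Figure D2:**
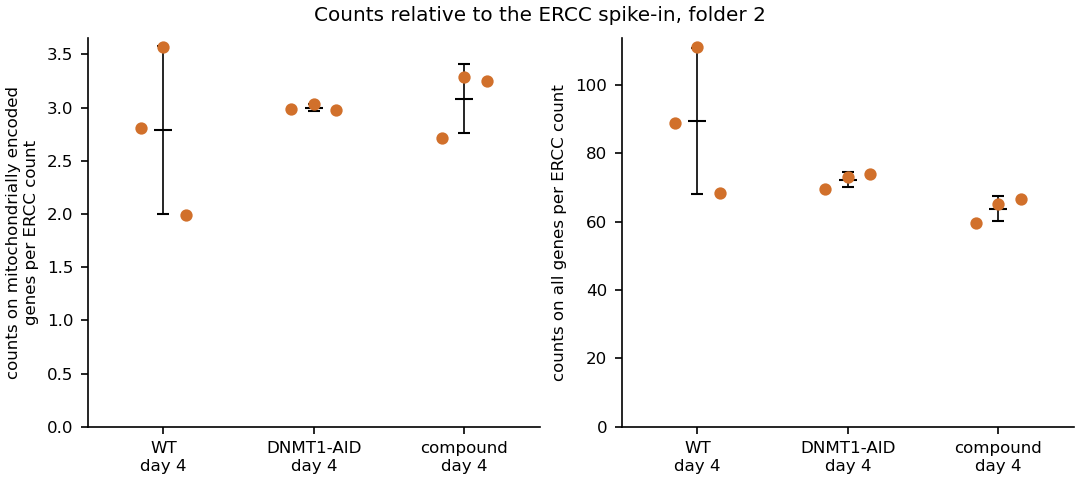
Counts on mitochondrially encoded genes (left) and on all genes (right) per ERCC count (linear axes from 0) in the 9 libraries of folder 2, with the mean and SD of 3 libraries as bars. On the left the WT libraries, from 1.99 to 3.57, span those of DNMT1-AID and compound cells. On the right the means fall from 89.4 in WT to 63.8 in compound cells.

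Protein-coding members held most of the mitochondrial counts. The rRNA genes held between 10.7% and 23.5% of them and the tRNA genes between 0.436% and 1.19%. The RNA is labelled as poly(A) RNA, so rRNA counts do not measure the whole rRNA pool, and reads counted on a tRNA gene cannot be told apart from reads of longer RNAs that cross it. Counts of an mRNA without a poly(A) tail would not measure its pool either.

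Per kilobase of gene, MT-CO2, a subunit of complex IV, had the highest mean level over the 24 libraries at 6045 CPM per kb (CPM being the count scaled for library size by TMM). The other complex IV subunits MT-CO3 and MT-CO1 followed at 4733 and 4309 CPM per kb, and MT-ND3, a subunit of complex I, at 4148. MT-CO2 was above MT-CO3 in 24 of 24 libraries. The places of the other 3 genes differed between the folders. By group means MT-ND3 was above MT-CO3 and MT-CO1 in 4 of the 5 groups of folder 1, such as UHRF1-AID at day 4 with 4728 against 3703 and 3414 CPM per kb, and below both in all 3 groups of folder 2. MT-ATP6, of the ATP synthase, had 2817 CPM per kb and MT-RNR2, the large rRNA, 2404. MT-ND4L and MT-ND4 had 1597 and 1458, MT-CYB, the mitochondrial subunit of complex III, 1233, MT-RNR1, the small rRNA, 1209 and MT-ND2 1092. Order within this group was weak: MT-CYB was above MT-RNR1 in 13 libraries of 24 and MT-RNR1 above MT-ND2 in 12. Among protein-coding and rRNA genes the lowest levels belonged to MT-ND1 at 579, MT-ND6 at 504, MT-ND5 at 315 and MT-ATP8 at 195 CPM per kb. MT-ATP8 lies next to MT-ATP6 on the same transcript and shares 46 of its 207 bases with it, yet had a level per kb far below it. How reads in shared bases were counted is not stated.

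**Figure D3:**
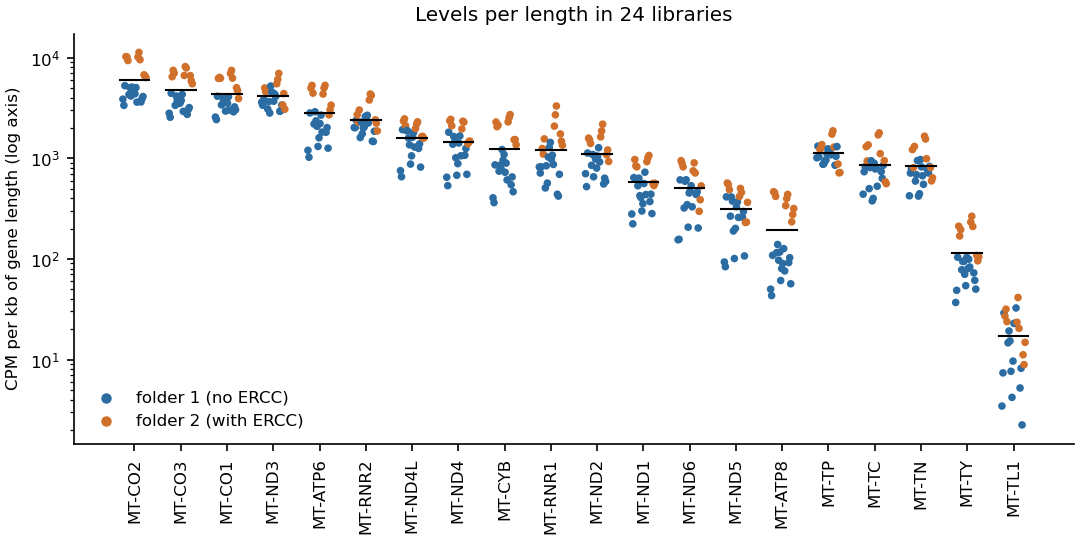
Level of the 13 protein-coding and 2 rRNA genes, followed by the 5 tested tRNA genes, in CPM per kb (log axis). Each point is a library, coloured by folder, and each of these sets is in order of the mean. In the first set MT-CO2 has the highest mean, 6045, and MT-ATP8 the lowest, 195. The tRNA genes run from MT-TP, with a mean of 1127, to MT-TL1, with a mean of 17.0.

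Among the tRNA genes, MT-TP, MT-TC, MT-TN and MT-TY held 98.96% of the tRNA counts and were the 4 of 22 with at least 10 counts in every library. All 4 are light-strand members. Their mean levels were 1127, 855, 829 and 113 CPM per kb. No other tRNA gene had more than 57 counts in a library, a count reached by MT-TL1, the leucine tRNA gene that follows MT-RNR2.

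Between the folders, 4 of the 15 protein-coding and rRNA genes did not overlap in CPM, and all 4 were higher in folder 2. The same count was not made over all genes, so whether 4 of 15 is unusual is not known. MT-ATP8 ranged from 8.94 to 28.8 CPM in folder 1 and from 48.3 to 96.1 in folder 2. MT-CO2 ranged from 2290 to 3596 CPM and from 4328 to 7699, and MT-CO3 from 2000 to 3465 and from 4304 to 6378. MT-CYB ranged from 413 to 1390 CPM in folder 1 and from 1549 to 3094 in folder 2. The 3 day 0 libraries whose counts fell with gene length were the 3 lowest of 12 at day 0 for MT-ATP8, MT-ATP6, MT-ND1, MT-ND4L, MT-ND4, MT-ND5, MT-ND6 and MT-CYB. MT-ND5, the longest of the protein-coding genes, was between 151 and 194 CPM in them and between 467 and 749 CPM in the other 9. MT-RNR1, MT-RNR2 and MT-ND3 showed no such gap.

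For tests, genes with low counts were filtered within each comparison, which left the 13 protein-coding genes, both rRNA genes and 5 tRNA genes, MT-TL1, MT-TN, MT-TC, MT-TY and MT-TP. The other 17 tRNA genes were tested in no comparison. A gene is said to rise or fall at an adjusted p under 0.05 in the quasi-likelihood test of edgeR, adjusted over all genes tested by the method of Benjamini and Hochberg, and a second count adds an absolute log2 fold change over 1 (the fold minimum). Comparisons with WT at 1 day share its 3 libraries.

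Before auxin, no member differed between UHRF1-AID and WT cells (smallest adjusted p = 0.942 by edgeR). Of all genes tested, 0% passed under either rule. The log2 differences of all 13 protein-coding genes were above 0, with a median of 0.53 against 0.01 over all genes. An unadjusted p under 0.05 was reached by 10 of 20 members. The share of all genes at that unadjusted p was not counted, here or in the comparisons below. In DNMT1-AID against WT cells no member passed either (smallest adjusted p = 0.801 by edgeR), beside 0.00723% of all genes under either rule, and 2 members reached an unadjusted p under 0.05. By DESeq2, 0 members passed in both comparisons. Without WT replicate 3, whose counts fell with gene length, 0 members passed in UHRF1-AID against WT cells and the median of the protein-coding genes was 0.36. Without the 3 libraries whose counts fell with gene length, the median log2 difference of the protein-coding genes between DNMT1-AID and WT cells was 0.53. That fit holds 1 DNMT1-AID library and 2 WT libraries, and the lone library is assumed to vary like the WT libraries.

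In compound cells before auxin 4 members were higher than in WT, beside 3.64% of all genes, and 1 of them passed the fold minimum, beside 1.31%. MT-RNR1 stood at 419, 401 and 660 CPM in WT and at 934, 1023 and 827 CPM in compound cells. It was 1.89-fold higher (edgeR adjusted p = 0.0395), and MT-RNR2, at 2492 ± 345 against 3829 ± 337 CPM (SD, n = 3), was 1.54-fold higher (edgeR adjusted p = 0.0425). MT-ND2, of complex I, was at 578, 660 and 612 CPM in WT and at 1092, 1324 and 957 CPM in compound cells, 1.82-fold higher (edgeR adjusted p = 0.0204). For these 3 genes the groups did not overlap. MT-TL1, the member past the fold minimum, had 3 to 12 counts per WT library and 39 to 57 per compound library, so it entered the test through the group where it is high. When each library had to hold 10 counts or more, 3 members passed and none the fold minimum. Without WT replicate 3, 6 members passed and the median log2 difference of the protein-coding genes went from 0.39 to 0.22. Each of the 4 calls was lost when any 1 of the 3 compound libraries, WT replicate 1 or WT replicate 2 was left out, and with the replicate number as a block 2 members passed.

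After auxin, the comparison within folder 1 is UHRF1-AID cells at day 4 against day 0, where no WT library of day 4 stands beside them. Of the 20 members tested, 4 rose and 6 fell, beside 49.4% of all genes that changed, and 3 passed the fold minimum, beside 21.9%. These shares of the members are near or below those of all genes. With all 24 libraries in 1 fit, 3 members passed, 2 higher and 1 lower. MT-RNR1 was at 483, 803 and 540 CPM at day 0 and at 980, 1222 and 1369 CPM at day 4. It rose 2.01-fold (edgeR adjusted p = 0.0028), without overlap between the days. MT-ND3 rose 1.53-fold (edgeR adjusted p = 0.00273), MT-CYB 1.41-fold (edgeR adjusted p = 0.00576) and MT-TP 1.26-fold (edgeR adjusted p = 0.0489).

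The members that fell were complex I genes, with MT-ATP6 and MT-TL1. MT-TL1 fell by 1.13 on the log2 scale and passed the fold minimum. It had 22 to 29 counts per day 0 library and 6 to 16 per day 4 library, so it entered the test through the group where it is high. When each library had to hold 10 counts or more, 9 members passed, 4 higher and 5 lower, and 2 passed the fold minimum. MT-ND5 was at 481, 746 and 679 CPM at day 0 and at 343, 183 and 364 CPM at day 4, and fell by 1.06 on the log2 scale (SE 0.26, edgeR adjusted p = 0.0101). MT-ND4 went from 1897, 2261 and 2020 CPM to 1392, 933 and 1217 CPM, and fell by 0.76 on the log2 scale (SE 0.15, edgeR adjusted p = 0.00212). Both genes had their lowest value in replicate 2 of day 4, the library whose counts fell with gene length. MT-ND4L fell by 0.66, MT-ND1 by 0.55 and MT-ATP6 by 0.54 on the log2 scale, while MT-ND2 and MT-ND6 had log2 differences of 0.17 and -0.56 that did not pass. Without day 4 replicate 2, 8 members passed, 3 of them higher and 5 lower, and none passed the fold minimum. With the replicate number as a block 9 passed, 4 higher and 5 lower.

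At day 4 within folder 2, 14 members were higher in DNMT1-AID than in WT cells and none lower, beside 7.95% of all genes, and 2 passed the fold minimum, beside 2.57%. The median log2 difference of the 13 protein-coding genes was 0.60 against 0.00 over all genes. MT-ND6, the only protein-coding gene of the light-strand transcript, was at 156, 203 and 279 CPM in WT and at 497, 466 and 431 CPM in DNMT1-AID cells. It was 2.19-fold higher (edgeR adjusted p = 0.0205). MT-ND5 was at 416, 420 and 660 CPM in WT and at 1027, 990 and 880 CPM in DNMT1-AID cells, a 1.94-fold difference (edgeR adjusted p = 0.0176). For both genes every DNMT1-AID library lay above every WT library. In WT cells both genes were lowest in replicate 1 and highest in replicate 3, where Spearman's rho of counts with gene length was -0.214 and -0.0036. That rho lay between -0.153 and -0.056 in the DNMT1-AID libraries, and the part of gene length in these differences was not tested.

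Other complex I genes were higher by less. MT-ND1 and MT-ND4 were each 1.59-fold higher (edgeR adjusted p = 0.000598 and 0.00077), MT-ND4L was 1.43-fold higher and MT-ND2 1.41-fold. The ATP synthase genes MT-ATP8 and MT-ATP6 were 1.63-fold and 1.62-fold higher, MT-CO2 1.52-fold, MT-CYB 1.47-fold and MT-CO1 1.38-fold (largest edgeR adjusted p of these 7 genes, 0.0222). MT-CO3 and MT-ND3 had log2 differences of 0.22 and 0.41 that did not pass, and the rRNA genes MT-RNR1 and MT-RNR2 -0.22 and 0.30. Among tRNA genes, MT-TP was at 59.5, 48.7 and 49.0 CPM in WT and at 83.4, 85.0 and 92.8 CPM in DNMT1-AID cells. It was 1.67-fold higher (edgeR adjusted p = 0.000602), and MT-TY was 1.87-fold higher (edgeR adjusted p = 0.00454). MT-TL1 passed on 11 to 18 counts per WT library and 27 to 39 per DNMT1-AID library.

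These differences are relative to the other genes. When libraries were scaled by their ERCC counts, 1 of the 20 members passed, MT-ND6 with a log2 difference of 0.82 (edgeR adjusted p = 0.042). Of all 13582 genes tested on this scale, 249 were higher and 326 lower. The median of the protein-coding genes was 0.25 and the median of all genes -0.35. MT-CO3 and MT-RNR2, which had not passed, went to -0.13 and -0.07. A fit of all 24 libraries left 3 members past the test, again all higher.

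In compound cells at day 4 all 20 members tested were higher than in WT, beside 38.2% of all genes that differed in either direction. The fold minimum was passed by 5 members, all tRNA genes, beside 11.7% of all genes. The protein-coding genes had a median log2 difference of 0.69, from 0.34 for MT-CO3 to 0.97 for MT-ND6, against 0.02 over all genes. Both rRNA genes were higher as well: MT-RNR1 was at 1661, 1408 and 1284 CPM in WT and at 1986, 2572 and 3152 CPM in compound cells, 1.78-fold higher (edgeR adjusted p = 0.00219). MT-RNR2 was at 3751, 3472 and 2910 CPM against 5907, 6769 and 6566 CPM, 1.90-fold higher (edgeR adjusted p = 3.9e-06). In neither gene did the groups overlap.

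Complex I genes ranged from MT-ND4L at 1.33-fold (edgeR adjusted p = 0.0019) to MT-ND6 at 1.96-fold (edgeR adjusted p = 0.018). MT-ND1 was at 538, 511 and 538 CPM in WT and at 884, 969 and 1018 CPM in compound cells, a 1.82-fold difference with the smallest p of the members (edgeR adjusted p = 6.68e-07). The complex IV genes MT-CO2, MT-CO1 and MT-CO3 were 1.58, 1.52 and 1.26-fold higher (largest edgeR adjusted p, 0.03), and MT-CYB of complex III was 1.71-fold higher (edgeR adjusted p = 1.01e-05). MT-ATP6 was 1.62-fold and MT-ATP8 1.43-fold higher.

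All 5 tRNA genes tested, 4 of the light-strand transcript and MT-TL1 of the heavy-strand transcript, had larger log2 differences than each of the mRNAs, a gap that was not itself tested. The largest was that of MT-TL1 at 1.29, on 11 to 18 counts per WT library and 25 to 48 per compound library. MT-TP was at 118, 127 and 87.7 CPM in compound cells, 2.13-fold the WT level (edgeR adjusted p = 5.29e-05). MT-TN was at 59.1, 43.4 and 46.6 CPM in WT and at 121, 113 and 72.1 CPM in compound cells, 2.06-fold higher (edgeR adjusted p = 0.0166). MT-TC was 2.21-fold higher (edgeR adjusted p = 0.0474) and MT-TY 2.30-fold (edgeR adjusted p = 8.24e-06). The 5 light-strand members tested had a median log2 difference of 1.09 and the 15 heavy-strand members 0.74. In DNMT1-AID cells against the same WT libraries, these medians were 0.79 and 0.56. Without a strand setting in the sources used here, a count on one strand cannot be told apart from a count on the other.

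With libraries scaled by their ERCC counts, 2 of the 20 members passed, MT-TY and MT-TC, with log2 differences of 0.70 and 0.63 (edgeR adjusted p = 0.0412 and 0.0463). Of all 14219 genes tested on this scale, 1113 were higher and 4871 lower, a larger share than that of the members. The median of the protein-coding genes was then 0.19 and that of all genes -0.49, while MT-CO3 and MT-ND4L lay at -0.18 and -0.10. The direction of MT-CO3 and MT-ND4L thus depended on the scale. In the fit of all 24 libraries 12 members passed, all higher. Of 5 markers of other cell types only COL1A1, a collagen gene, had enough counts to be tested, and it was higher by 1.64 on the log2 scale in this comparison, with levels between 1.29 and 19.8 CPM over all libraries. PTPRC, COL1A2 and ALB stayed at or below 0.716 CPM and PECAM1, of endothelial cells, at or below 1.48 CPM.

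**Figure D4:**
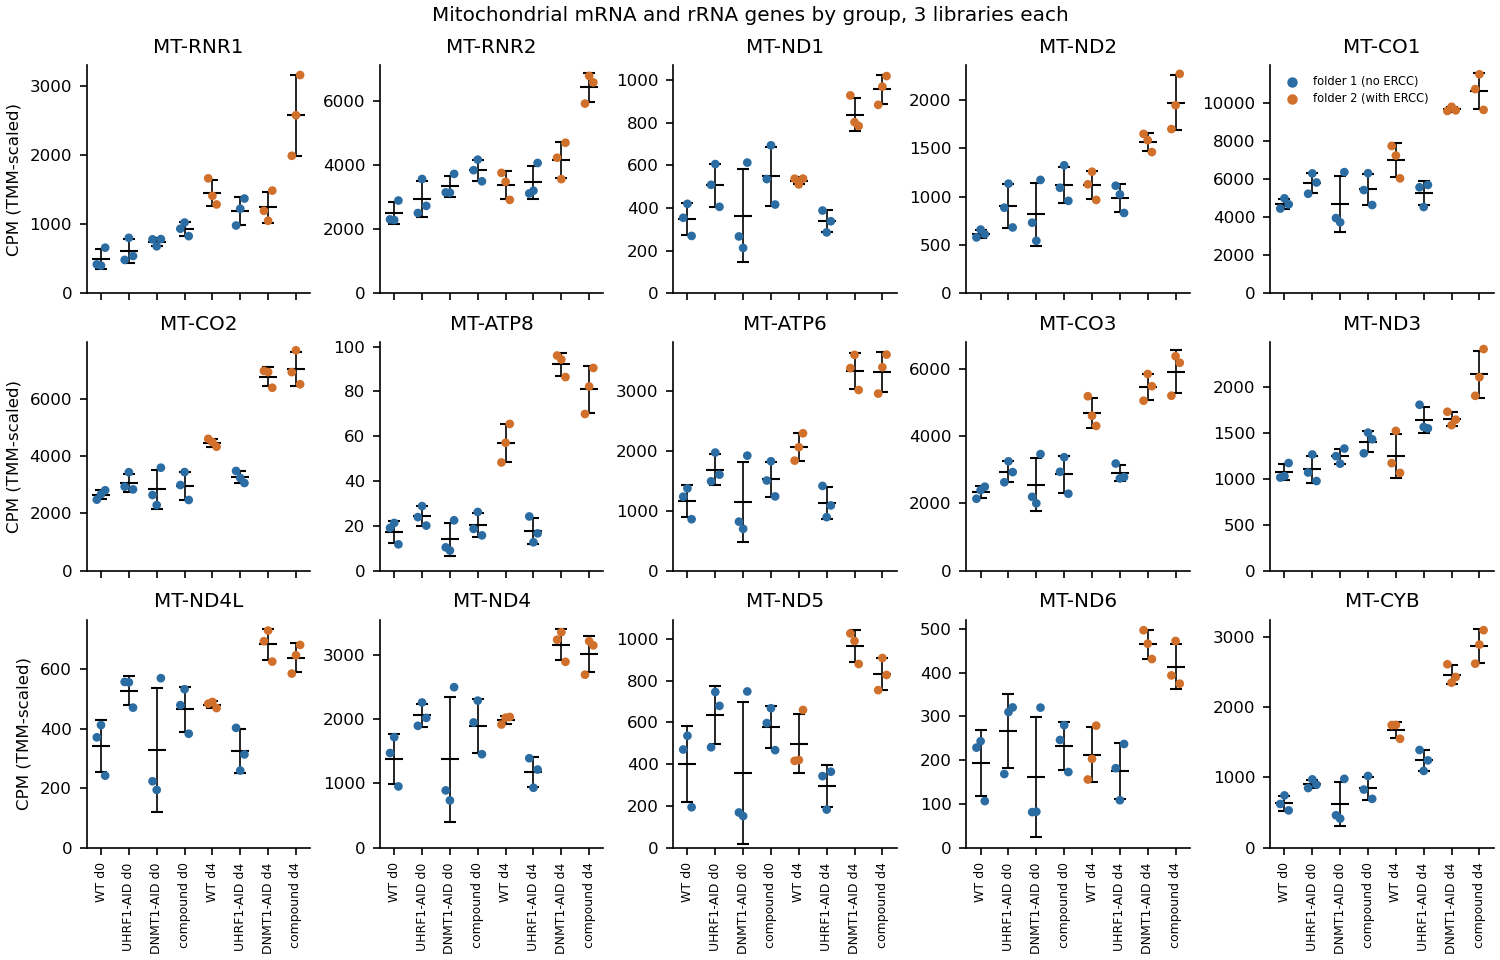
CPM of the 13 protein-coding and 2 rRNA genes (linear axes from 0) in each of the 24 libraries, by group and coloured by folder, with the mean and SD of 3 libraries as bars. MT-RNR1 has its highest values, 1986 to 3152 CPM, in compound cells at day 4, and MT-ATP8 lies between 48.3 and 96.1 CPM in folder 2 and at or below 28.8 CPM in folder 1.

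Across folders, UHRF1-AID cells at day 4 differed from WT at day 4 in 9 members, beside 17.4% of all genes. Of these, 8 protein-coding genes were lower and MT-TP higher, and 1 member passed the fold minimum, beside 6.99%. MT-ATP8 was at 24.2, 12.6 and 16.6 CPM in UHRF1-AID cells and at 48.3, 57.1 and 65.5 CPM in WT, 3.13-fold lower (edgeR adjusted p = 0.00216). How reads that it shares with MT-ATP6 were counted is not stated. MT-ATP6 was 1.78-fold lower (edgeR adjusted p = 0.0097), MT-ND4 1.65-fold (edgeR adjusted p = 0.00918) and MT-CO3 1.58-fold (edgeR adjusted p = 0.00476). MT-CO2 and MT-CYB were lower as well, and with MT-ATP8 and MT-CO3 they are the 4 genes whose ranges did not overlap between the folders. Without WT replicate 3 or without UHRF1-AID replicate 3, 5 members passed.

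Day 4 against day 0 was compared within each line, and these comparisons share no library with one another. In WT cells, across folders, 10 members rose and MT-TP fell, beside 35.6% of all genes that changed, and 3 passed the fold minimum, beside 11.9%. Without WT day 4 replicate 1 or 2, 7 members passed, and without WT day 0 replicate 3, 14 passed. The call of MT-TP was lost with the replicate number as a block and without WT day 0 replicate 2 or any 1 of the 3 day 4 libraries. In DNMT1-AID cells, across folders, 11 rose and none fell, beside 40.4% of all genes, and 7 passed the fold minimum, beside 15.3%. Leaving out DNMT1-AID day 0 replicates 1 and 2 leaves a lone day 0 library. The median log2 difference of the protein-coding genes was then 0.53, against 1.20 with all libraries. Without day 0 replicate 3, 18 passed. Without DNMT1-AID day 4 replicate 1 or 3, 7 passed. In compound cells, across folders, 19 rose and none fell, beside 67.8% of all genes, and 9 passed the fold minimum, beside 26.6%. The collagen gene COL1A1 rose as well, by 1.97 on the log2 scale in compound and by 2.18 in DNMT1-AID cells, and its part in these results was not tested.

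MT-RNR1 and MT-CYB rose in all 4 lines. The rise of MT-RNR1 was 2.90-fold in WT and 2.75-fold in compound cells, against 1.65-fold in the DNMT1-AID line and 2.01-fold in the UHRF1-AID line (largest edgeR adjusted p, 0.00318). MT-CYB was at 622, 743 and 530 CPM in WT at day 0 and at 1743, 1746 and 1549 CPM at day 4, 2.62-fold higher (edgeR adjusted p = 0.00036). In UHRF1-AID cells, within folder 1, it was at 848, 972 and 897 CPM at day 0 and at 1390, 1092 and 1242 CPM at day 4, while DNMT1-AID and compound cells had 3.97-fold and 3.36-fold rises. The days did not overlap in any line for either gene.

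MT-ATP8 rose 3.24-fold in WT, 6.59-fold in DNMT1-AID and 3.98-fold in compound cells, all across folders (largest edgeR adjusted p, 0.00148). In UHRF1-AID cells, within folder 1, it was at 23.9, 28.8 and 20.1 CPM at day 0 and at 24.2, 12.6 and 16.6 CPM at day 4, a log2 difference of -0.41 that did not pass. MT-ATP8 shares bases with MT-ATP6, and the part that the counting of shared reads has in these values was not tested. MT-CO2 and MT-CO3 had log2 differences between 0.74 and 1.25 in the 3 lines compared across folders and of 0.12 and 0.02 in UHRF1-AID cells. MT-TP, the proline tRNA gene, was 1.40-fold lower at day 4 in WT (edgeR adjusted p = 0.0428, a call lost as given above), had a log2 difference of 0.19 in DNMT1-AID cells that did not pass, and rose 1.42-fold in compound cells (edgeR adjusted p = 0.00276).

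**Figure D5:**
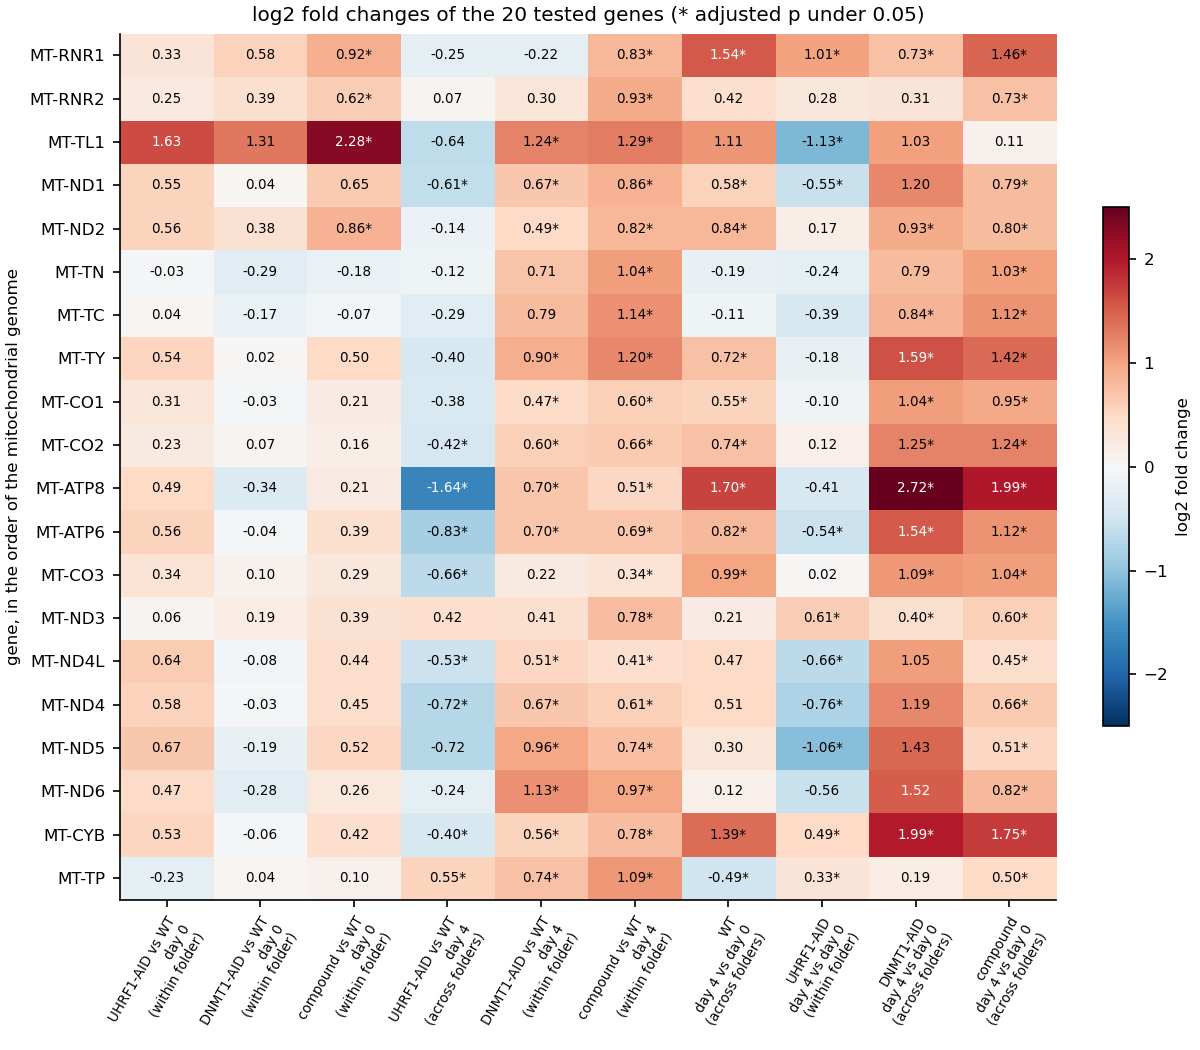
Log2 fold changes of the 20 tested members (rows, in genome order) in 10 comparisons (columns, each marked as within or across folders), coloured from blue (lower) to red (higher), with a star at an edgeR adjusted p under 0.05. The column of compound cells against WT at day 4 is starred throughout, with values from 0.34 to 1.29.

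The day effects were then compared between lines, since WT, DNMT1-AID and compound cells all change folder between the days. For DNMT1-AID minus WT no member passed (smallest adjusted p = 0.255 by edgeR), beside 0.153% of all genes, or 0.139% with the fold minimum. An unadjusted p under 0.05 was reached by 6 members, with no count over all genes beside it, and 0 passed by DESeq2. Without WT day 0 replicate 3, 1 member passed, lower, and without DNMT1-AID day 0 replicate 3, 5 passed, all higher. For compound minus WT 2 members passed, both tRNA genes of the light-strand transcript, beside 15.3% of all genes, and 1 passed the fold minimum, beside 5.41%. For MT-TN the ratio of day 4 to day 0 in compound cells was 2.25 times that in WT (edgeR adjusted p = 0.0146), and for MT-TP 1.92 times (edgeR adjusted p = 0.00939). Both genes had a lower mean at day 4 than at day 0 in WT and a higher mean at day 4 in compound cells. The 5 light-strand members had a median difference of 0.94 on the log2 scale and the 15 heavy-strand members 0.18. A difference between folders that acted equally on WT and compound cells is in both day effects.

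Nuclear genes of the organelle were counted beside the members, from lists written by hand. In compound against WT cells at day 4, 38 of 75 nuclear subunits of oxidative phosphorylation tested were higher and 5 lower, with a median log2 difference of 0.28 against 0.02 over all genes, of which 38.2% passed in either direction. Complex I gave 20 of the higher and 3 of the lower subunits out of 35, and complex IV 8 of 11, with none lower. Complex III gave 4 higher and 2 lower of 9, complex V 6 higher and none lower of 16, and none of 4 complex II subunits passed. NDUFA11, an accessory subunit of complex I, passed the fold minimum with a log2 difference of 1.27 (SE 0.15, edgeR adjusted p = 2.7e-06). Of 76 mitochondrial ribosomal protein genes 13 were higher and 22 lower, and of 20 genes of transcription and mtDNA maintenance 2 were higher and 5 lower. Of 28 genes of RNA processing and decay 3 were higher and 7 lower, among them MRM1, a methyltransferase of the mitochondrial rRNA, with a log2 difference of -1.34 (SE 0.24, edgeR adjusted p = 0.000126). Of 8 regulators of biogenesis none was higher and 3 were lower, among them MYC, a transcription factor that promotes growth, with -1.20 (SE 0.10, edgeR adjusted p = 4.14e-09). The shares of the lists of maintenance, of RNA processing and of biogenesis genes that passed are near that of all genes.

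In DNMT1-AID against WT cells at day 4, 6 of 75 nuclear subunits were higher and 2 lower, beside 7.95% of all genes in either direction, and of 76 ribosomal protein genes 2 were higher and 4 lower. Among genes of RNA processing and decay PNPT1, which degrades RNA in the organelle, was higher by 1.00 on the log2 scale (SE 0.12, edgeR adjusted p = 0.000147), and 1 of the 28 was lower. Of 20 genes of transcription and mtDNA maintenance none was higher and 1 lower, and no regulator of biogenesis passed. From day 0 to day 4 in UHRF1-AID cells, 5 of 76 nuclear subunits rose and 17 fell, and 3 of 77 ribosomal protein genes rose and 33 fell. Of all 14391 genes 49.4% changed, 3813 higher and 3301 lower. The shares of both lists that changed in either direction are at or below that of all genes. Falls outnumbered rises in both lists, while rises outnumbered falls among all genes. MRPL11 and MRPL30, proteins of the large subunit, had log2 differences of -1.47 and -1.41 (edgeR adjusted p = 4.71e-05 and 0.000177). Of 20 genes of transcription and mtDNA maintenance 2 rose and 11 fell, so a larger share of them changed than of all genes. Among those that fell were TWNK, the helicase of mtDNA replication, with -1.14, and POLG2, a subunit of the mtDNA polymerase, with -1.05 (edgeR adjusted p = 0.000235 and 0.000685). Of 28 genes of RNA processing and decay 2 rose and 11 fell, with PUS1, which modifies tRNA, at -1.15 and MRM1 at -1.67 (edgeR adjusted p = 8.88e-05 and 0.000105). Of 8 regulators of biogenesis none rose and 3 fell, a smaller share than that of all genes. Among these, MYC fell by 2.17 and PPRC1, a coactivator of biogenesis, by 1.95 on the log2 scale (edgeR adjusted p = 9.78e-06 and 0.000282). MYC also fell across folders, with log2 day differences of -1.26 in WT, -1.07 in DNMT1-AID and -2.39 in compound cells.

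Nuclear DNA holds copies of mitochondrial genes that can share their reads. The files list 404 of them, of which 31 had a count, and their 53121 counts over all libraries were 0.408% of the mitochondrial counts. MTATP6P1, on chromosome 1 from 633696 to 634376 in hg38, matches MT-ATP6 at 98.5% of bases and had 39930 counts, 4.74% of those of MT-ATP6. MTCO1P12 had 8003 counts and MTND2P28 3960, or 0.271% and 0.783% of the counts of MT-CO1 and MT-ND2. How reads that align to both places were counted is not stated, so the division of counts between a member and its copy is uncertain.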

How the data were processed

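RNA-seq of poly(A) RNA was analysed in 24 libraries, 3 in each of 8 groups, assigned by the labels. The authors deposited raw read counts per gene. Reads were trimmed (Trimmomatic), mapped by STAR on hg38 and assigned to genes by featureCounts. The strand setting and the treatment of overlapping genes and of reads aligned to several places are not given in the sources used here. Depth lay between 15824804 and 25073821 counts on genes.

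Counts were analysed with Python 3.11.15, pandas 2.3.3, scipy 1.17.1, R 4.3.3 and edgeR 4.0.16, and plotted with matplotlib 3.10.9. Each comparison used only its own groups, filterByExpr, TMM scaling and the robust quasi-likelihood test. ERCC sequences were kept out of library sizes and tests. Gene symbols came from GENCODE release 44 and were found for 58207 genes. CPM values were scaled by TMM over all 24 libraries. The length relation is Spearman's rho between gene length and the deviation of log2(CPM + 0.5) from the mean of all libraries, over nuclear genes with a mean CPM of at least 1. The procedure was tested on simulated data.

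Members and lists were chosen with earlier results of these data known. All protein-coding and rRNA members were named, with the tRNA genes that passed the filter in every comparison. From each nuclear list, at most 2 genes per direction with the smallest p past both thresholds were named, and of the nuclear copies the 3 with the most counts. Of the RNA processing genes sought, FASTKD4 was not matched by symbol.

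In all 24 pairs of libraries of a group the counts differed by more than sampling noise (chi-square over its degrees of freedom, 3.52 to 59.2). Same-numbered libraries were taken as paired where their deviations from the group means correlated above 0.1 in all 3 pairs, as in UHRF1-AID (0.325, 0.178 and 0.175) and compound cells (0.114, 0.119 and 0.113) between the days. Over the 10 comparisons checked, these correlations ranged from -0.769 to 0.383, and 2 comparisons met this rule. The replicate numbers come from the labels, which do not say what they mark. The alternatives were RLE scaling, scaling by nuclear genes, other filters and thresholds, all libraries in 1 fit, DESeq2 1.42.0, a replicate block and leaving out each library. Leaving out the day 0 libraries whose counts fell with gene length, and ERCC scaling, were added after seeing the data.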

Additional observations from a re-analysis of the deposited data

Results flagged for a closer look

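The tRNA genes MT-TN and MT-TP stood out because the day effect differed between compound and WT cells in a test of the difference itself. For MT-TN the day effect was 1.17 larger on the log2 scale in compound cells (SE 0.28, edgeR adjusted p = 0.0146). MT-TN went from 56.0 ± 4.22 to 49.7 ± 8.27 CPM in WT and from 49.6 ± 9.87 to 102 ± 26.2 CPM in compound cells (SD, n = 3 each). For MT-TP the day effect was 0.94 larger (SE 0.21, edgeR adjusted p = 0.00939). MT-TP went from 72.6 ± 15.5 to 52.4 ± 6.16 CPM in WT and from 77.8 ± 3.75 to 111 ± 20.7 CPM in compound cells (SD, n = 3 each). Both lines change alignment folder between the days. Of the 20 members tested 2 passed, beside 15.3% of all genes, and 1 the fold minimum, beside 5.41%, so neither count exceeds the share of all genes. With all 24 libraries in 1 fit MT-TP passed and MT-TN did not.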

How the results depend on the processing

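Counts here are members past the fold minimum unless stated. With no fold minimum the counts were 4 for compound against WT at day 0 and 9, 14 and 20 for UHRF1-AID, DNMT1-AID and compound against WT at day 4. They were 11, 10, 11 and 19 for the day comparisons of WT, UHRF1-AID, DNMT1-AID and compound cells, and 2 for the compound minus WT day effect. At an adjusted p under 0.01 they were 0 for compound against WT at day 0, 0 and 2 for DNMT1-AID and compound against WT at day 4, 1 for the UHRF1-AID days and 0 for compound minus WT. Under RLE scaling the count for compound minus WT was 3. Without a filter on low counts it was 2, and 3 for DNMT1-AID minus WT. With at least 10 counts in every library it was 2, and 0 for compound against WT at day 0. With all 24 libraries in 1 fit the counts were 0 for DNMT1-AID against WT at day 4, 0 for the UHRF1-AID days, 12 for the DNMT1-AID days and 0 for compound minus WT. By DESeq2 they were 1, 1 and 2 for DNMT1-AID against WT at day 4, the UHRF1-AID days and compound minus WT. With ERCC scaling they were 0 for both comparisons with WT at day 4, and MT-CO3 at -0.18 and MT-ND4L at -0.10 changed direction in compound cells, as did MT-CO3 at -0.13 and MT-RNR2 at -0.07 in DNMT1-AID cells, where neither had a call. Leaving out the 3 day 0 libraries whose counts fell with gene length leaves 1 DNMT1-AID library at day 0. The median log2 difference of the protein-coding genes was then 0.53 against WT at day 0 and 0.53 between the DNMT1-AID days. For DNMT1-AID minus WT it was 0.03. In that day 0 comparison MT-CO1, MT-ATP6, MT-ND4L, MT-ND4, MT-ND5, MT-ND6, MT-CYB and MT-TC turned to log2 differences of 0.42, 0.55, 0.53, 0.64, 0.57, 0.43, 0.51 and 0.26. The cause of these changes was not tested.

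With the replicate number as a block, the count past the fold minimum was 0 for compound against WT at day 0, 1 for DNMT1-AID against WT at day 4 and 2 for compound minus WT. Of 107 gene values with a call with or without the block, 13 lost and 7 gained it and none changed direction. In the UHRF1-AID and compound day comparisons, where the numbers were taken as paired, 9 and 19 members passed the adjusted p.

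Leaving out 1 library at a time, the count ranged from 0 to 2 for compound against WT at day 0, and from 1 to 2, 0 to 3 and 1 to 6 for UHRF1-AID, DNMT1-AID and compound against WT at day 4. It ranged from 3 to 4, 0 to 2, 4 to 15 and 5 to 10 for the days of WT, UHRF1-AID, DNMT1-AID and compound cells, and from 0 to 5 and 1 to 3 for DNMT1-AID and compound minus WT. With the rRNA genes left out, the mitochondrial share was 1.60% in WT, 2.13% in UHRF1-AID and 2.00% in compound cells at day 0, and 2.63%, 2.09%, 3.65% and 3.98% in WT, UHRF1-AID, DNMT1-AID and compound cells at day 4. Of 1455 single-gene values under alternatives that had a call in the reported fit or the alternative, 213 lost and 92 gained it and 10 changed direction, those of the day 0 comparison and of compound cells above. Values with no call in either fit are not in this count. The 17 tRNA genes below the filter were not tested, so no difference in them could be shown or excluded.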
